A study of Mus musculus with 7 samples.

Results

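Splicing factor genes are described here in CD4 T cells sorted from lung tumours, for 7 gene families that build or steer the spliceosome. Members were all protein-coding genes whose symbol starts with Srsf, Hnrnp, Sf3a, Sf3b, Prpf, Snrp, U2af or Lsm (followed by a number for Srsf, Sf3a, Sf3b, Prpf and Lsm). The rule found 81 of the 55364 genes counted: 11 Srsf, 20 Hnrnp, 9 Sf3, 13 Prpf, 12 Snrp, 3 U2af and 13 Lsm genes. The rule reads gene symbols and no expression value, but it was set with earlier results of these data known.

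The study asked how class II antigen presentation by fibroblasts shapes immunity in lung tumours, and these libraries profile the T cells. All mice were C57BL/6, over 8 weeks old, carried a floxed MHC class II allele (I-AbF/F), received tamoxifen and bore orthotopic lung tumours. The 5 Control libraries came from I-AbF/F mice without Cre. The 2 Cre libraries came from I-AbF/F Col1a2-cre mice, in which the Col1a2 promoter drives Cre in fibroblasts rather than in the T cells that were sorted. The labels describe the libraries as biological replicates and do not say whether animals were pooled. Sorting was on CD45+CD3+CD4+, and libraries captured the 3′ ends of transcripts.

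Splicing removes introns from pre-mRNA in steps carried out by small nuclear ribonucleoproteins (snRNPs), each an RNA held in a ring of Sm or LSM proteins. U1 marks the 5′ splice site, the U2AF dimer reads the 3′ splice site, SF3A and SF3B lock U2 onto the branch point, and PRPF proteins bring in and activate the U4/U6.U5 tri-snRNP. SR proteins (Srsf) and hnRNPs bind exons and introns and shift the choice of site. In T cells the best known case is CD45, encoded by Ptprc, whose exons are skipped after activation with the help of Hnrnpll.

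The 7 libraries held from 1449739 to 1929899 counts, of which splicing factor genes took 1.47% to 1.95% in Control and 1.51% and 1.52% in Cre. Expression is given as counts or as CPM, which divides by the library's total count. The members' sum overlapped between the groups with library totals, TMM or DESeq2 size factors. With upper-quartile factors both Cre sums (14450 and 14910) lay below the Control range (15280 to 17830). A count of 0 allows up to 3 counts, or 0.888 CPM over both Cre libraries together; this limit and all others here cover counting error only. Markers of T cells were present in every library, with Cd4 at 330 to 738 counts in Control and at 731 and 567 in Cre, and the 8 T cell markers summed to between 2972 and 3949 CPM across Control, against 3708 and 2060 CPM in Cre. Cd3e was at 51 to 405 counts in Control but at 116 and 3 in Cre.

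Most splicing factor genes overlapped between the groups, while a small set of single subunits had few or no counts in both Cre libraries. Prpf4b, Hnrnpll and Sf3a2 had counts in every Control library and 0 in both Cre libraries. Among tested genes with counts in every Control library, these were 3 of 68 members (4.41%), against 5.38% of all, so members did not stand out. Lsm4, Sf3b4 and Snrpd2 had at most 26 counts in a Cre library against at least 51 in every Control library. Prpf38b and Sf3b3 had both Cre libraries above every Control value, with a Cre to Control ratio of mean CPM of 3.07 and 3.05. No splicing factor gene passed the edgeR quasi-likelihood test after Benjamini-Hochberg adjustment over the 9854 tested genes at 0.05: 0 of 76 tested members were called higher, as were 0% of all tested genes, and 0 were called lower, against 0.0101% of all (1 gene). By DESeq2, an alternative test on the same counts, 7 members were lower at an adjusted p under 0.05 (9.21% of those tested, against 6.16% of all genes) and 1 was higher (1.32%, against 0.355%).

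At an unadjusted edgeR p under 0.05, 3 members were higher (3.95%, against 1.41% of all tested genes) and the same 7 members were lower (9.21%, against 10.2%). By limma voom, 0 members were called higher or lower, against 0.0304% and 0% of all genes. Both Cre libraries lay below the whole Control range for 10 of 76 members (13.2%, against 10.9% of all tested genes) and above it for 2 (2.63%, against 4.05%). The fitted log2 fold change was below 0 for 45 of 76 members (59.2%, against 60.1%). Pooled over abundance, splicing factor genes thus had shares of lower values near those of all genes. The shares differed by mean CPM over all 7 libraries, so the Cre values compared here also helped to set each gene's band. Lsm4, at 108 CPM in Control, fell under 100 CPM through its Cre values (mean 77.5 CPM). The split therefore cannot show that members of a given abundance differ from all genes. At 30 to 100 CPM, 8 of 21 members (38.1%) lay below the Control range, against 12.7% of all tested genes. Under 30 CPM, 2 of 13 members did (15.4%, against 11.4%). From 100 to 300 CPM and from 300 CPM upward, 0 members did, against 7.81% and 4.13% of all. The members' median fitted log2 fold change was −0.13, and that of all tested genes was −0.39. Both medians kept these values with genes at 0 in both Cre libraries set to their bound. Since the libraries came from bulk RNA, fewer cells of a type and less RNA per cell cannot be told apart.

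**Figure D1:**
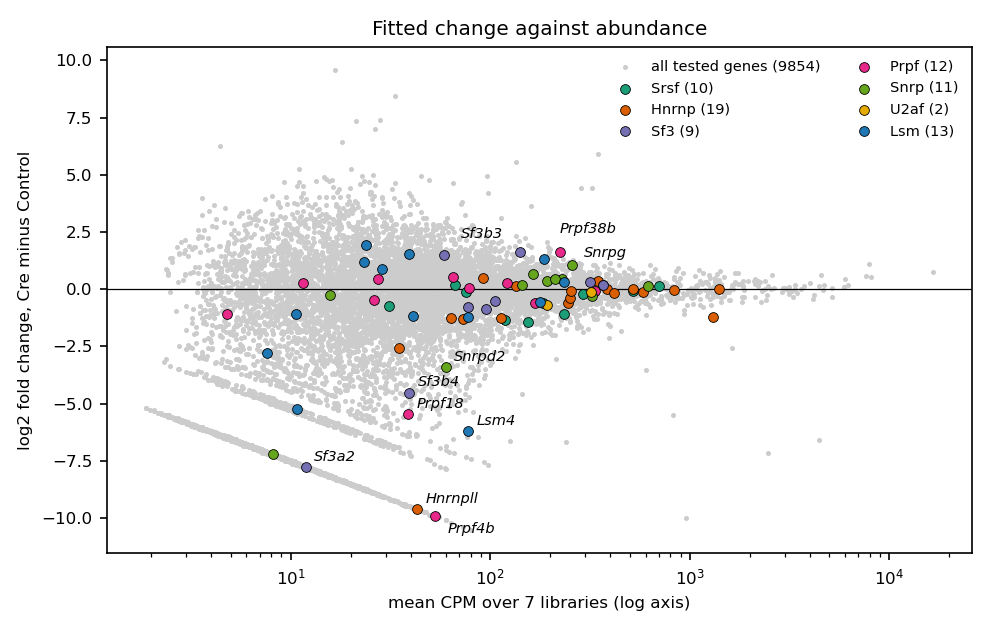
Fitted log2 fold change (Cre minus Control, vertical axis) against mean CPM over 7 libraries (horizontal log axis) for 9854 tested genes in grey and 76 splicing factor genes coloured by family. The labelled genes are the 10 with an unadjusted p under 0.05, of which 7 lie low and 3 high; the straight lower edge holds genes with 0 counts in both Cre libraries, whose fitted value depends on the prior count and is no bound.

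The Snrp genes encode the proteins of the snRNPs themselves. The 7 Sm ring genes (Snrpb, Snrpd1, Snrpd2, Snrpd3, Snrpe, Snrpf and Snrpg) summed to between 1259 and 2333 CPM across Control, against 1991 and 2260 CPM in Cre, so the summed level overlapped. Among them Snrpd2 was the 1 gene with both Cre libraries below the Control range. Control 1 to 5 had 146, 179, 51, 178 and 103 counts of it, while Cre 1 and Cre 2 had 26 and 2, the order in which libraries are given throughout. The lowest Control library thus had more counts than either Cre library. Its level was 81.0 ± 34.9 CPM (SD, n = 5) in Control, against 7.43 ± 8.55 CPM (SD, n = 2) in Cre, 10.9 times lower, with a fitted log2 fold change of −3.41 ± 1.28 (SE) and an edgeR adjusted p of 0.422. The DESeq2 adjusted p was 0.0198, but the call was lost without Control 1, 2 or 4 or without Cre 2, where it reached 0.114.

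The other 6 genes of the ring overlapped between the groups. Snrpd1, which pairs with Snrpd2 during ring assembly, had 609, 199, 480, 229 and 169 counts across Control, against 543 and 418 in Cre. Snrpd3 had 1889, 995, 580, 1069 and 366 counts across Control, against 1276 and 970 in Cre. In both of these genes the Cre libraries lay inside the Control range. Snrpe had 491, 372, 600, 700 and 638 counts across Control, against 475 and 457 in Cre, which in CPM put Cre 1 (246) under the lowest Control library (250.6) and Cre 2 within the range. Snrpg had a higher fitted value, with 337, 340, 307, 414 and 196 counts across Control, against 460 and 839 in Cre. The Cre 1 library lay just inside the Control range in CPM, at 238 against a highest Control value of 240.1, so the higher mean of 408.5 ± 240.7 CPM in Cre against 195.6 ± 46.9 CPM in Control rested on Cre 2. Its fitted log2 fold change was 1.05 ± 0.45 with an edgeR adjusted p of 0.427. Snrpb and Snrpf had fitted log2 fold changes of 0.66 ± 0.77 and 0.43 ± 0.44.

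The proteins specific to the U1 and U2 particles gave no gene with an unadjusted p under 0.05. Snrpa and Snrpc, both of U1, were little counted: Snrpa had 19, 0, 0, 20 and 56 counts in Control and 0 in both Cre libraries, and Snrpc had 22, 22, 50, 19 and 22 counts across Control, against 52 and 0 in Cre. Both have processed copies with nearly the same 3′ sequence (4 for Snrpa and 3 for Snrpc), so their counts are uncertain. Snrpa1 and Snrpb2 of U2 summed to between 238 and 390.1 CPM across Control, against 447 and 323.5 CPM in Cre. Snrpn, a neuronal relative of Snrpb, had 0 counts in all 7 libraries and was not tested.

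The SF3 genes encode the complexes that fix U2 at the branch point. As a family they summed to 1022 to 1243 CPM across Control, against 1320 and 1366 CPM in Cre, which put both Cre libraries over the highest Control sum. That order held with TMM, DESeq2 size factors and upper-quartile factors in place of library totals. The 6 SF3B genes alone summed to 856 to 1146 CPM across Control, against 1182 and 1183 CPM in Cre, but they overlapped with upper-quartile factors. The sums hid opposite members, since 4 SF3 genes had higher and 5 had lower fitted values. Sf3b3 alone took 44.5 to 136 CPM across Control, against 309 and 232 CPM in Cre. Both sums thus lean on this 1 gene and do not show a higher level over the family.

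Sf3b3, a large scaffold subunit that holds SF3B1, was the SF3 gene above the Control range. It had 194, 66, 114, 135 and 221 counts across Control, against 596 and 336 in Cre. Both Cre libraries exceeded all 5 Control libraries. The level was 88.7 ± 36.5 CPM in Control, against 270 ± 54.5 CPM in Cre, with a fitted log2 fold change of 1.61 ± 0.55, an edgeR adjusted p of 0.383 and a DESeq2 adjusted p of 0.0605. Most of its counts (79.2%) fell in the annotated 3′ UTR at chr8:110809990-110810940 (mm10, minus strand), which held 130, 47, 64, 108 and 151 counts across Control, against 595 and 222 in Cre, while an intronic region of 249 bases held 49, 11, 48, 22 and 64 across Control, against 1 and 112 in Cre. The 3′ UTR counts alone thus also separated the groups, and the intronic counts did not.

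Sf3b4, the subunit that contacts the pre-mRNA next to the branch point, lay below the Control range. It had 80, 108, 72, 118 and 61 counts across Control, against 6 and 2 in Cre, all in its 3′ UTR region at chr3:96177167-96177813. No Cre library came near the lowest Control library. The mean was 24.1 times lower, at 54.1 ± 15.6 CPM in Control, against 2.24 ± 1.22 CPM in Cre. The edgeR log2 fold change was −4.52 ± 1.49 with an adjusted p of 0.367, and the DESeq2 adjusted p was 0.00146. The DESeq2 call held with each of the 7 libraries left out. Sf3b4 has 1 near-identical copy, which held 3 to 9 counts in Control and 0 in Cre.

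Sf3a2, a zinc finger subunit of SF3A, had 31, 23, 38, 24 and 20 counts in Control and 0 in both Cre libraries. At 16.7 ± 4.36 CPM in Control it was at least 18.8-fold lower in Cre, with an edgeR adjusted p of 0.391 and a DESeq2 adjusted p of 0.0193. The DESeq2 call was lost without Control 1 or Control 3 (adjusted p 0.08005 and 0.0612), and DESeq2 gave no adjusted p without either Cre library. The other SF3A genes overlapped: Sf3a1 had 107, 176, 52, 245 and 140 counts across Control, against 149 and 35 in Cre, and Sf3a3 had 62, 0, 68, 143 and 51 across Control, against 116 and 231 in Cre. Sf3b1, the subunit that grips the branch point and is the best known cancer gene of the family, had 459, 406, 703, 481 and 849 counts across Control, against 870 and 501 in Cre. Its groups overlapped, with a fitted log2 fold change of 0.19 ± 0.40, and so did those of Sf3b2, at 0.33 ± 0.42. Sf3b5 and Sf3b6 had fitted values of −0.51 ± 0.65 and −0.85 ± 0.82.

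**Figure D2:**
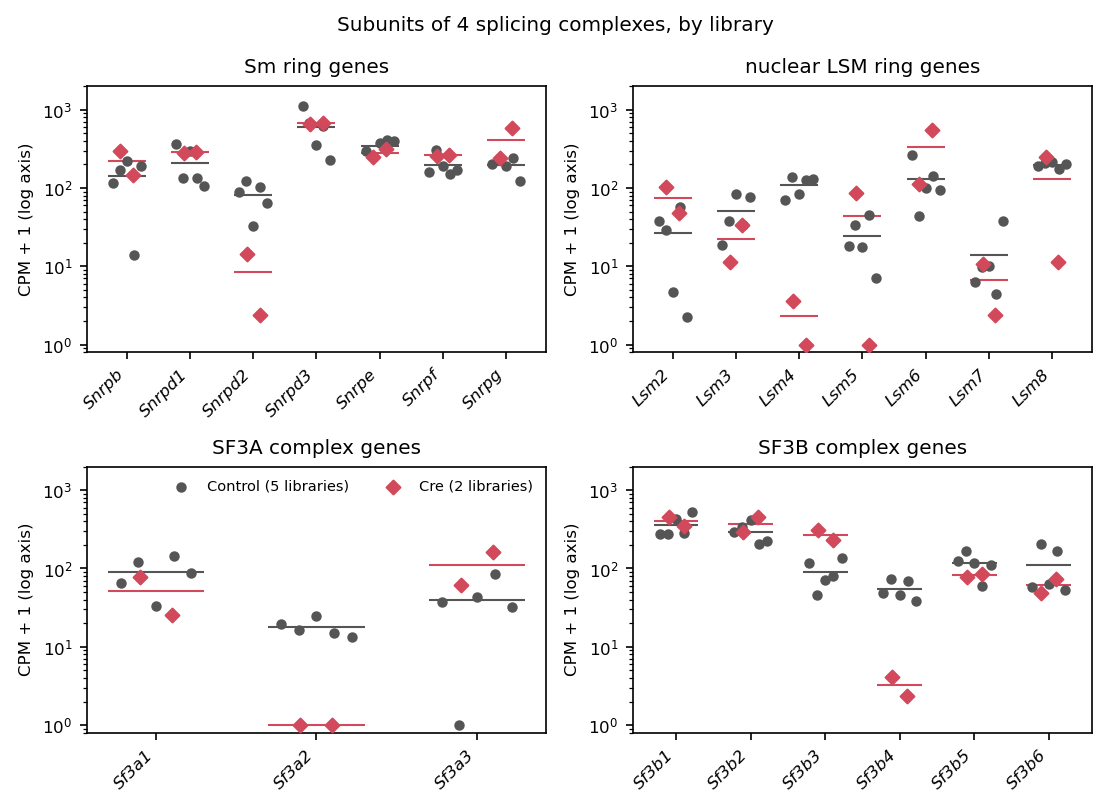
CPM + 1 (log axis) of each gene of the Sm ring, the nuclear LSM ring, SF3A and SF3B, with grey circles for the 5 Control libraries, red diamonds for the 2 Cre libraries and lines for the group means. In each panel 1 gene has both Cre libraries below all Control libraries (Snrpd2, Lsm4, Sf3a2 and Sf3b4), and Sf3b3 is the gene with both above.

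The U2AF dimer recruits U2 through the polypyrimidine tract (U2af2) and the 3′ splice site (U2af1). U2af1 had 279, 406, 322, 469 and 279 counts across Control, against 339 and 126 in Cre, with a fitted log2 fold change of −0.70 ± 0.51. U2af2 had 395, 261, 888, 523 and 627 counts across Control, against 857 and 204 in Cre, with a fitted value of −0.14 ± 0.54. In both genes Cre 1 lay inside the Control range and Cre 2 below it. U2af1 has 3 near-identical copies. U2af1l4, a relative that overlaps another gene on the same strand, had 5, 0, 17, 0 and 0 counts in Control and 0 in both Cre libraries, and was not tested.

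The Prpf genes hold the tri-snRNP together, activate it and act on the later steps. They summed to 941.6 to 1551 CPM across Control, against 1154 and 1339 CPM in Cre, with 6 genes fitted higher and 6 lower. Prpf4b, a kinase that phosphorylates tri-snRNP proteins before activation, had 84, 105, 164, 75 and 175 counts in Control and 0 in both Cre libraries. All of these counts fell in 1 region at chr13:34901393-34906313 (plus strand, 4921 bases, of which 4672 are 3′ UTR in at least 1 transcript). At 74.5 ± 29.0 CPM in Control it was at least 83.9-fold lower in Cre. The edgeR adjusted p was 0.214, and DESeq2 called it lower (adjusted p 4.25e-05), also with each library left out.

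Prpf38b, a relative of the tri-snRNP factor Prpf38a, was the 1 member called higher by DESeq2. It had 183, 214, 212, 281 and 255 counts across Control, against 620 and 786 in Cre. Its Control libraries lay close together and both Cre libraries stood well above them. The level was 140.5 ± 21.8 CPM in Control, against 432 ± 156 CPM in Cre. The fitted log2 fold change was 1.62 ± 0.40, with an edgeR adjusted p of 0.277 and a DESeq2 adjusted p of 0.00723. Leaving out Cre 2 ended the DESeq2 call (adjusted p 0.205). The 3′ UTR region at chr3:108902556-108904762 (minus strand) held 99.6% of its counts. Prpf38a had 27, 88, 47, 19 and 15 counts across Control, against 129 and 0 in Cre, and its groups overlapped.

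Prpf18, which acts in the second catalytic step, had 49, 56, 192, 146 and 0 counts across Control, against 3 and 1 in Cre. The groups overlapped through the 0 in Control 5. DESeq2 gave it an adjusted p of 0.0231 and edgeR an adjusted p of 0.422, and the DESeq2 call was lost in 4 of 7 refits with a library left out (adjusted p up to 0.112). Prpf8, the central scaffold of the active site, was among the steadiest members in Control, with 83, 98, 104, 91 and 100 counts, and had 238 and 60 in Cre. The Cre libraries lay on opposite sides of the Control range, and the fitted log2 fold change was 0.51 ± 0.82. Prpf19, the ubiquitin ligase of the activation complex, had 657, 309, 536, 931 and 393 counts across Control, against 869 and 282 in Cre. The groups also overlapped for Prpf3, Prpf4, Prpf6 and Prpf39, with fitted log2 fold changes from −1.08 (Prpf3) to 0.26 (Prpf4). Prpf40b had 35 counts in Control 5 and 0 elsewhere, and was not tested.

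Prpf31, which joins U4/U6 to U5, drew its counts from different positions. Its 562 counts in Control 4 all came from an intronic region of 249 bases at chr7:3631422-3631670, while 234 of its 236 counts in Cre 2 came from the 3′ UTR region at chr7:3640923-3642735. The other 4 Control libraries held 29, 1, 17 and 47 counts, and Cre 1 held 2. The high values in Control 4 and Cre 2 thus came from different places in the gene.

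The Lsm genes form 2 rings: LSM2 to LSM8, which binds U6 in the nucleus, and a cytoplasmic ring with LSM1 that acts in mRNA decay. The 7 genes of the nuclear ring summed to 491 to 595.5 CPM across Control, against 568 and 638 CPM in Cre, an overlap that ended with DESeq2 size factors, where both Cre sums lay above the Control range. Lsm4 alone among them had both Cre libraries below the Control range. It had 116, 201, 133, 219 and 207 counts across Control, against 5 and 0 in Cre. The level was 108 ± 30.4 CPM in Control, against 1.30 ± 1.83 CPM in Cre, 83.4 times lower. The edgeR log2 fold change was −6.20 ± 1.34 with an adjusted p of 0.218, and DESeq2 called it lower (adjusted p 4.23e-06), also with each library left out. Its 3′ UTR region at chr8:70678452-70679001 (plus strand) held 78.8% of counts, and the second region, which covers the edge of a coding exon, held 14 to 64 counts in Control and 0 in both Cre libraries.

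Several other genes of the nuclear ring differed widely between the 2 Cre libraries. Lsm8 was the steadiest member in Control (coefficient of variation 8.50%), with 316, 305, 346, 295 and 330 counts, but had 479 in Cre 1 and 15 in Cre 2. Lsm6 had 442, 64, 162, 243 and 153 counts across Control, against 213 and 793 in Cre. Lsm5 had 29, 49, 27, 76 and 10 across Control, against 164 and 0 in Cre. Which Cre library was the higher differed from gene to gene. Lsm2 had 62, 42, 6, 97 and 2 counts across Control, against 196 and 68 in Cre. Lsm10, part of the U7 ring that processes histone mRNA, had 19, 22, 9, 71 and 3 counts across Control, against 0 and 1 in Cre, with an edgeR adjusted p of 0.429. Lsm14a, a P-body protein, had 226, 193, 499, 752 and 157 counts across Control, against 846 and 139 in Cre. For the other 6 genes (Lsm1, Lsm3, Lsm7, Lsm11, Lsm12 and Lsm14b) the groups overlapped, with fitted log2 fold changes from −2.80 (Lsm1) to 1.95 (Lsm11).

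**Figure D3:**
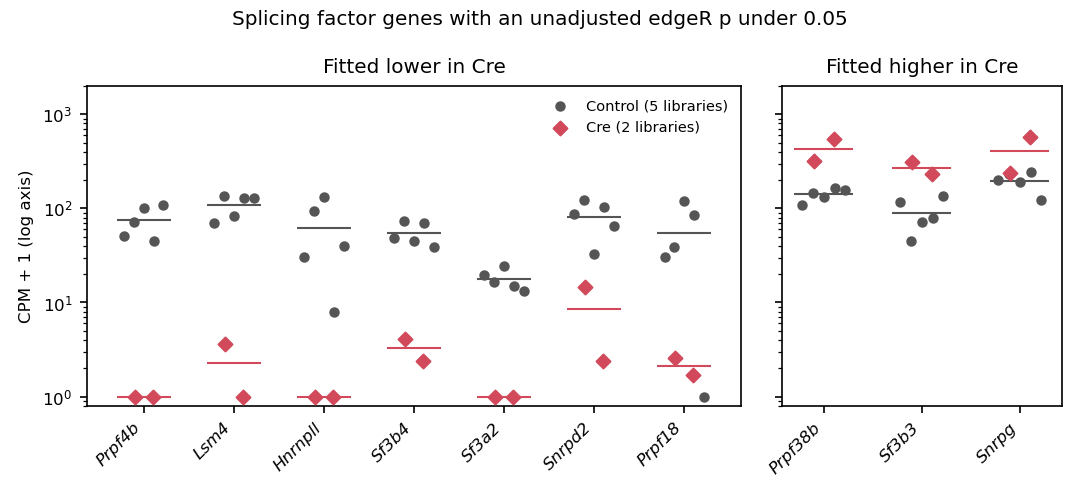
CPM + 1 (log axis) in each library of the 7 lower and 3 higher splicing factor genes with an unadjusted p under 0.05, with circles for the 5 Control libraries, diamonds for the 2 Cre libraries and lines for the group means. Prpf4b, Hnrnpll and Sf3a2 sit at 0 CPM in both Cre libraries, and Prpf38b and Sf3b3 have both Cre libraries above the Control range.

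The Srsf genes encode SR proteins, which mostly promote the use of exons they bind. They gave no gene with an unadjusted edgeR p under 0.05 and none with both Cre libraries on the same side of the Control range. Srsf10 had its Cre libraries on opposite sides of it, at 11.4 and 136.6 CPM against 28.9 to 115.2 CPM in Control. Of 10 tested Srsf genes, 8 had lower fitted values (median log2 fold change −0.42, where 60.1% of all tested genes were lower with a median of −0.39). The family summed to 1984, 2096, 2068, 2330 and 4087 CPM across Control, against 2000 and 2102 CPM in Cre. The Control 5 library stood apart here, and the 2 Cre libraries lay at the level of the other Control libraries, although with upper-quartile factors both were below the Control range. Srsf5 had 791, 871, 723, 975 and 2175 counts across Control, against 1061 and 1375 in Cre. Srsf1, the founding member, had 815, 829, 693, 646 and 1347 counts across Control, against 1381 and 388 in Cre. In both genes Control 5 had the most counts of its group. Srsf7 had the lowest p of the family, with 332, 253, 487, 550 and 649 counts in Control, 342 and 111 in Cre, a log2 fold change of −1.10 ± 0.52 and an edgeR adjusted p of 0.429. Srsf6 had 187, 225, 305, 238 and 593 counts in Control, 250 in Cre 1 and 6 in Cre 2. The other 6 tested genes (Srsf2, Srsf3, Srsf4, Srsf9, Srsf10 and Srsf11) had fitted log2 fold changes from −1.33 (Srsf11) to 0.20 (Srsf10). Srsf12 had 2 counts in Control 1 and 0 elsewhere, and was not tested.

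The Hnrnp genes encode nuclear RNA binding proteins, many of which block or shift splice sites. Their sum was 6784, 7961, 7170, 7304 and 10020 CPM across Control, against 6450 and 6661 CPM in Cre. Both Cre libraries thus lay under the lowest Control sum, but with DESeq2 size factors the groups overlapped (6539 to 9875 against 6874 and 7110). Hnrnpa1 alone took 275, 1538, 737, 987 and 4319 CPM of the sum across Control, against 487 and 826 CPM in Cre. The order of the sums thus leans on this 1 gene and does not show a lower level over the family. Hnrnpll, which drives skipping of Ptprc exons in activated T cells, had 49, 139, 216, 12 and 63 counts in Control and 0 in both Cre libraries. The Control values spread over 19.1-fold, yet none was 0. At 60.2 ± 51.6 CPM in Control, Hnrnpll was at least 67.9-fold lower in Cre, with an edgeR adjusted p of 0.32. DESeq2 called it lower (adjusted p 0.000472), also with each library left out. Its leading region, at chr17:80029238-80030540 (minus strand), is 3′ UTR and held 55.1% of counts. Ptprc had 266, 314, 777, 442 and 359 counts across Control, against 456 and 242 in Cre, a log2 fold change of −0.37 ± 0.49. Counts at 3′ ends do not show which Ptprc exons were used.

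Hnrnpa3, Hnrnpd and Hnrnph1 also had both Cre libraries below the Control range in CPM, with unadjusted edgeR p-values above 0.05. Hnrnpa3 had 104, 93, 264, 114 and 141 counts across Control, against 79 and 41 in Cre, and is uncertain because 28 near-identical copies held 159 to 262 counts across Control, against 172 and 35 in Cre. Hnrnpd, which also controls mRNA decay, had 102, 161, 207, 57 and 83 counts across Control, against 60 and 47 in Cre. Its log2 fold change was −1.25 ± 0.96, and the Cre values were close to the lowest Control library. Hnrnph1 had 45, 100, 34, 41 and 148 counts across Control, against 0 and 22 in Cre. Hnrnph2, its X-linked relative, had between 1 and 3 counts in each Control library and 0 in both Cre libraries, too few to test. Counting it, 4 of 81 members had counts in every Control library and 0 in both Cre libraries; among tested genes with counts in every Control library the figure was 3 of 68 members (4.41%) against 5.38% of all.

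Several highly counted hnRNPs overlapped between the groups. Hnrnpa1, a repressor of many exons, had 464, 2283, 1198, 1701 and 7030 counts across Control, against 939 and 1198 in Cre. The Control libraries alone spanned 15.7-fold, with Control 5 the highest. Hnrnpa0 had 3265, 1482, 2323, 2686 and 1770 counts across Control, against 2732 and 2036 in Cre, which is 1402 ± 378 CPM in Control, against 1410 ± 7.94 CPM in Cre. Hnrnpa2b1 had 697, 709, 999, 1008 and 808 counts across Control, against 916 and 821 in Cre, with a log2 fold change of 0.02 ± 0.34. Hnrnpk had 947, 1534, 1157, 1909 and 1284 counts across Control, against 1251 and 1449 in Cre. In these 4 genes both Cre libraries lay inside the Control range. Hnrnpul1 had 186, 141, 381, 111 and 285 counts in Control but 207 in Cre 1 and 6 in Cre 2. The other 10 tested genes (Hnrnpab, Hnrnpc, Hnrnpdl, Hnrnpf, Hnrnph3, Hnrnpl, Hnrnpm, Hnrnpr, Hnrnpu and Hnrnpul2) also overlapped, with fitted log2 fold changes from −0.58 (Hnrnpab) to 0.48 (Hnrnpr).

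**Figure D4:**
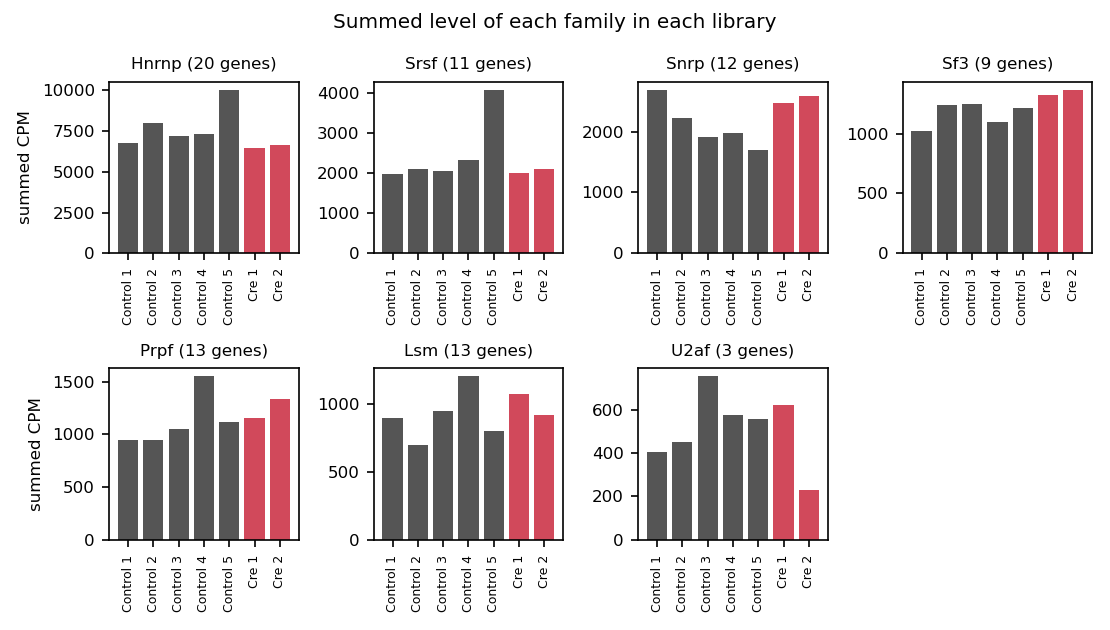
Summed CPM of each family, with 1 bar for each of the 5 Control libraries (grey) and 2 Cre libraries (red) and an axis from 0 in each panel. Control 5 is the highest library for Srsf (4087 CPM) and Hnrnp (10020 CPM), and the Sf3 sums of both Cre libraries (1320 and 1366 CPM) lie above the highest Control sum (1243 CPM).

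In CPM, which is not scaled for transcript length, 22.4% of tested members had a mean of 300 or more over the 7 libraries, against 5.65% of all tested genes. Of the 81 members, 79, 74, 76, 74 and 75 had at least 1 count in Control 1 to 5 and 67 in each Cre library, and the numbers expected at the smallest library total differed by less than 1 gene. Tested members at 0 numbered 0 to 3 in Control (up to 3.95%) and 9 in each Cre library (11.8%). Of all tested genes, 1.14% to 16.1% were at 0 in a Control library and 25.0% and 33.6% in Cre 1 and Cre 2. Among the 64 members with a mean of at least 50 counts, Cre 1 and Cre 2 differed more than 4-fold in CPM + 1 for 12 (18.8%, against 39.7% of all tested genes with that mean). Any 2 Control libraries did so for 3 to 10 (4.69% to 15.6%, against 12.0% to 21.2%), and a Control and a Cre library for 9 to 20 (14.1% to 31.2%, against 23.6% to 37.1%). The members' shares were under those of all genes in each pair of libraries. Between the groups they overlapped those within Control only through the pair of Control 4 and Cre 1 (14.1%). The next lowest pair between the groups, Control 1 and Cre 1, was at 17.2%. For all genes the shares between the groups lay above those within Control.

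The file counts regions rather than whole transcripts, which allows a look at where in each gene the counts lay. The members had 397 listed regions, of which 216 held counts, and 57 members had at least 90% of their counts in 1 region. Regions without exon bases of their own gene held 0.285% to 2.8% of member counts in Control and 0.824% and 1.07% in Cre. For all protein-coding genes those shares were 1.62% to 4.55% in Control and 2.05% and 1.9% in Cre, so the groups overlapped in both. Of the 19 members with at least 2 regions of 10% or more, 15 had at least 500 counts.

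Both regions of Snrpd2 had low counts in Cre. Its 3′ UTR region at chr7:19152651-19153791 held 111, 150, 15, 26 and 47 counts across Control, against 0 and 1 in Cre, and a region at the edge of a coding exon held 35, 29, 36, 152 and 56 across Control, against 26 and 1 in Cre. In each region both Cre libraries lay below every Control library. Snrpe had 37.7% to 85.2% of its counts in the most distal region in Control and 82.1% and 67.0% in Cre, inside the Control range. Hnrnpd had all of its counts in the distal region in both Cre libraries and in Control 4, and 46.4% to 84.5% in the other 4 Control libraries. Sf3a1 and Sf3b6 each had an intronic region of 249 bases with counts in some Control libraries (up to 87 and 72 counts, both in Control 4) and 0 in both Cre libraries. In Srsf11, 57 of the 64 counts in Cre 2 came from an intronic region, and its 3′ UTR region held 0 there against 68 to 286 in Control.

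In Hnrnpa1 the shares were steady while the level was not. Its leading region, within the 3′ UTR, held between 51.0% and 56.5% of the gene's counts in Control and 57.1% and 52.3% in Cre, although the gene's count ranged from 464 to 7030. Hnrnpa2b1 spread its counts over 3 regions of its 3′ end, the most distal with 24.5% to 59.7% in Control and 36.4% and 39.1% in Cre. Srsf5 had 66.5% to 95.5% in its distal 3′ UTR region in Control and 98.2% and 89.8% in Cre. The groups overlapped for Hnrnpa2b1; in Hnrnpa1 and Srsf5 the Cre 1 share lay above the Control range and the Cre 2 share inside it.

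**Figure D5:**
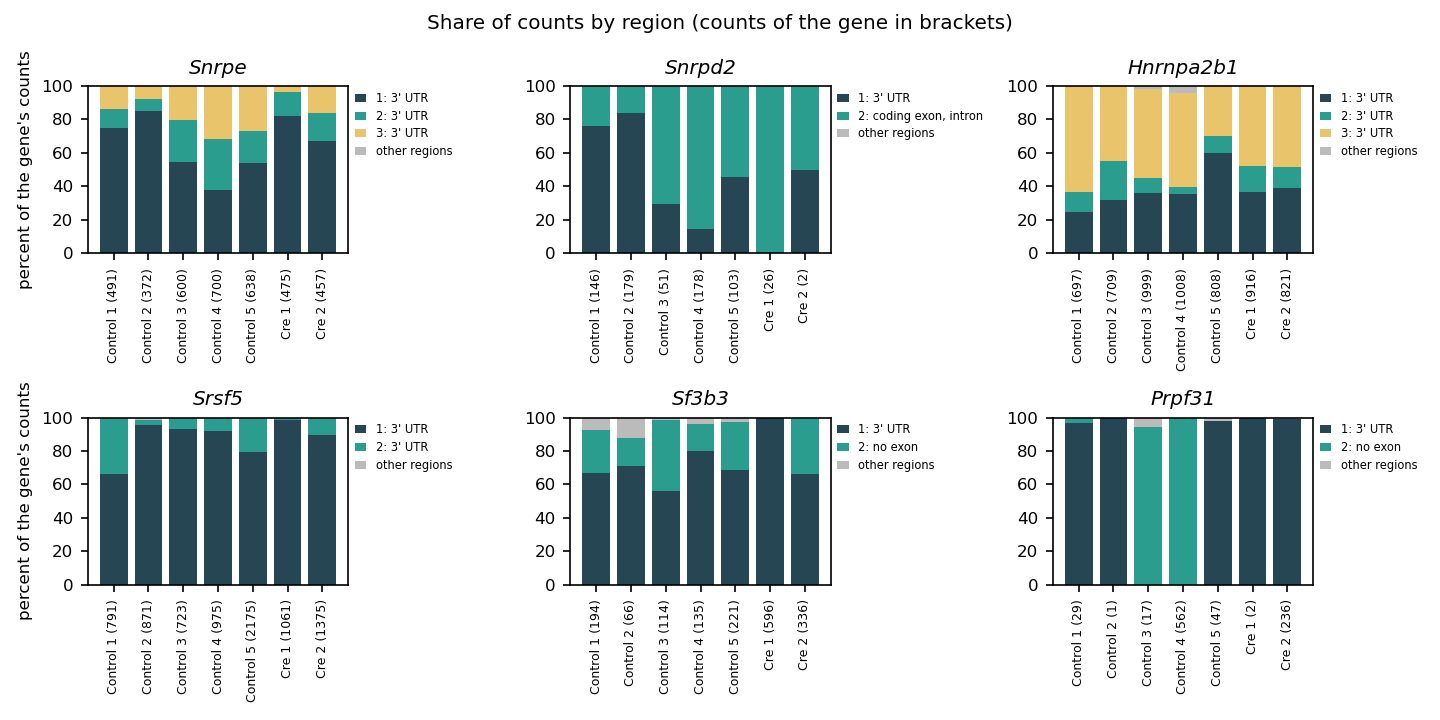
Percent of each gene's counts in its leading regions (coloured) and all others (grey) in each library, with the gene's total count in brackets; the legend says whether a region holds 3′ UTR, coding exon and intron or no exon of the gene. Prpf31 takes its 562 counts in Control 4 from a region with no exon and nearly all of its 236 counts in Cre 2 from the 3′ UTR, and Sf3b3 takes 99.8% of its 596 counts in Cre 1 from the 3′ UTR.

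Among splicing genes outside the 7 families, 4 of 146 tested had counts in every Control library and 0 in both Cre libraries. The same held for 338 of all 9854 tested genes. From 5 lists of other spliceosome proteins, splicing regulators, SR protein kinases and phosphatases, exon junction and decay factors and snRNP assembly factors, 150 genes were found and 146 tested. Of these, 64 had higher and 82 lower fitted values with a median log2 fold change of −0.13, 2 were higher and 9 lower with p under 0.05 by edgeR before adjustment (1.41% and 10.2% of all tested genes), and 0 passed adjustment; DESeq2 called 0 higher and 7 lower (0.355% and 6.16% of all tested genes). The 9 lower genes were 5 of 61 tested spliceosome proteins, 2 of 47 regulators, 1 of 15 junction and decay factors and 1 of 14 assembly factors, with 0 of 9 kinases and phosphatases. The 2 higher genes, named after their values were seen, were the assembly factor Gemin6, with 12, 0, 0, 1 and 10 counts across Control, against 288 and 0 in Cre, and the import adaptor Snupn, with 28, 0, 4, 0 and 0 across Control, against 69 and 176 in Cre. Wbp4, a WW domain protein of the spliceosome, had 47, 66, 193, 175 and 133 counts in Control and 0 in both Cre libraries, at least 84.3-fold lower, with an edgeR adjusted p of 0.214. Smg5 of nonsense-mediated decay had 36, 39, 53, 57 and 54 counts in Control and 0 in both Cre libraries, and Mbnl2, a muscleblind regulator, had 89, 42, 14, 30 and 124 in Control and 0 in both. Luc7l2, a U1-associated factor, was a more moderate case: 344, 570, 446, 491 and 479 counts across Control, against 226 and 194 in Cre, a log2 fold change of −1.19 ± 0.44 and an edgeR adjusted p of 0.41. Zmat2, a zinc finger protein of the spliceosome, had 436, 606, 328, 193 and 144 counts across Control, against 104 and 36 in Cre, with a log2 fold change of −2.43 ± 0.77, an edgeR adjusted p of 0.367 and a DESeq2 adjusted p of 0.0236. Snrnp27, a tri-snRNP protein, had 39, 7, 106, 2 and 26 counts in Control and 0 in both Cre libraries.

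Markers of other cells moved with the groups in part. Of 8 tested T cell markers 0 had an unadjusted p under 0.05, of 5 fibroblast markers 1 (Col1a2) and of 3 macrophage markers 1 (Lyz2), both lower in Cre. Fibroblast markers summed to 159.6 to 575 CPM across Control, against 276 and 53.1 CPM in Cre, with Col1a2 at 179, 50, 242, 40 and 336 counts across Control, against 7 and 2 in Cre. Col1a1, at 103, 146, 124, 188 and 122 against 84 and 6 counts, was also below the Control range in CPM, while Dcn (76, 7, 112, 115 and 257 against 364 and 41 counts) and Col3a1 (22 to 85 against 35 and 26 counts) overlapped. Macrophage and monocyte markers summed to 12.9 to 47.4 CPM across Control, against 1.04 and 4.83 CPM in Cre, with Lyz2 at 8 to 54 counts in Control and 0 in Cre and Adgre1 at 0 in every library. Epithelial markers summed to 0.614 to 25.2 CPM across Control, against 25.4 and 1.38 CPM in Cre, and endothelial markers to 17.2 to 68.7 and to 66.3 and 6.21 CPM. The B cell, CD8 T cell and neutrophil sums did not exceed 9.49 CPM in any library, with Ms4a1 at 0 throughout. The part of these cells in the values of the splicing factor genes was not tested.

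The authors' deposited table of the same contrast, made with DESeq2, gave an FDR for 80 members. In it 1 member was higher and 7 were lower at an FDR under 0.05, against 38 and 656 of the 18008 genes with an FDR in that table. The deposited FDR was 2.55e-07 for Lsm4, 1.49e-05 for Prpf4b, 1.96e-05 for Sf3b4, 0.000454 for Hnrnpll, 0.0014 for Sf3a2, 0.0205 for Snrpd2, 0.0479 for Prpf18 and 0.00743 for Prpf38b in the authors' deposited table. These are the same libraries, so they are no independent evidence.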

How the data were processed

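The authors deposited whole-number counts for 116000 3′ regions of 55364 genes in 7 libraries, per the file headers. The build mm10 and the tools HISAT2 2.1.0, FastQC 0.11.8 and DESeq2 are listed in the submitters' processing notes. How regions were counted, whether by strand and from which annotation, is not given in the sources used here. In a second table the authors deposited p-values and FDR from DESeq2, a fold as a ratio, the log2 fold change and the GC percent, per the file headers. Libraries were placed in groups from their titles.

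Counts were summed per gene. Groups were compared with edgeR 4.0.16 (R 4.3.3) by its quasi-likelihood F-test with TMM, robust dispersion, group as the only term and filterByExpr (minimum count 10, minimum total 15), which kept 9854 genes and 76 of 81 members (not tested: Hnrnph2, Prpf40b, Snrpn, Srsf12 and U2af1l4). P-values were two-sided and adjusted over all tested genes by Benjamini-Hochberg; the SE comes from the F statistic. The script was tested on simulated data. An exact two-sided rank-sum test of 2 against 5 libraries cannot go below 0.0952 and was not used.

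Alternatives were DESeq2 1.42.0, limma 3.58.1 (voom, with and without library weights), other scalings and filters, the leading region only, each library left out and the replicate number as a block. As a check on shared numbers, deviations from the group mean of Control 1 and Cre 1 correlated at 0.003 over genes. Those of Control 2 and Cre 2 correlated at 0.002. With 2 Cre libraries their deviations mirror each other, so this check cannot show that the libraries were unpaired.

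Members, lists and rules were chosen with earlier results of these data known. Genes named are members with an unadjusted p under 0.05, the 2 of highest mean CPM per family, those at 0 in both Cre libraries but in no Control library, those with several used regions, and the 6 other splicing genes of smallest p; Snrpa, Snrpb, Snrpb2, Snrpc, Snrpd1, Snrpf, Sf3a3, Sf3b5, Prpf8, Prpf38a, Lsm2, Lsm5, Lsm8, Lsm10, Srsf6, Srsf7, Hnrnpa3, Hnrnph1, Hnrnpk, Hnrnpul1 and untested members were added after their values were seen. The values of 1 member are not reported here. Regions were placed against GENCODE M21 (mm10), which held all 81 members, and coordinates count from 1. Near-identical copies were sought with BLAST 2.17.0 over the last 500 bases of each member's transcripts (at least 95% identity over 100 bases); 16 members had at least 1.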

Additional observations from a re-analysis of the deposited data

Results flagged for a closer look

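Among 33 named splicing factor genes whose 5 Control values were screened for a library far from the others, 4 had one. The cutoff passes about 1 in 20 groups of normally distributed values. That rate was not checked for CPM, so the 4 are not shown to be more than chance gives. Control 5 stood apart for Hnrnph3 at 505 CPM (the others 192.6 to 226.9), for Snrpa1 at 267 CPM (the others 74.8 to 126.1) and for Srsf5 at 1336 CPM (the others 444.6 to 586.7). Control 4 stood apart for Prpf31 at 325.9 CPM (the others 0.674 to 28.9), all of it in an intronic region. None of the 4 genes had an unadjusted edgeR p under 0.05 between Cre and Control.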

How the results depend on the processing

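Among all tested genes, the edgeR test called 0 higher and 1 lower; with no filter it called 15 and 28, DESeq2 called 35 and 607, limma voom 3 and 0, voom with library weights 0 and 0, and leaving out 1 library gave 0 to 17 higher and 1 to 202 lower. Among splicing factor genes, edgeR called 0 higher and 0 lower; without the filter it called 2 lower (Lsm4 and Prpf4b, adjusted p 0.0341 and 0.0344), DESeq2 called 1 higher and 7 lower, and leaving out 1 library gave 0 higher and 0 to 5 lower, the 5 without Cre 1, which assumes that the lone Cre library varies like the Control libraries. With the replicate block, 0 members were called either way, and 0 genes of all were higher and 5 lower. In DESeq2 fits with a library left out, chosen after seeing the data, 4 (without Control 1) to 12 (without Cre 1) members were lower and 0 (without Cre 2) to 3 (without Cre 1) higher, beside 380 to 1510 lower and 31 to 93 higher of all genes tested in the same fits. The members' median log2 fold change ran from −0.04 (DESeq2 size factors) to −0.47 (voom with library weights); DESeq2 size factors and upper-quartile factors moved the median of all genes from −0.39 to −0.29 and −0.49. That median was −2.40 without Cre 1 and −1.22 without Cre 2 (members −0.46 and −0.28), −1.32 with no filter (members −0.10), −0.95 with the replicate block (members −0.42) and −0.12 with at least 10 counts in 5 libraries (members −0.08). Members with Cre below the Control range numbered 9 to 12 under the other scalings, 28 without Cre 1 and 17 without Cre 2 (26.5% and 21.6% of all tested genes); those above it numbered 2 to 3, but 5 without Control 4, 11 without Cre 1 and 10 without Cre 2 (17.7% and 17.5% of all tested genes). Members at 0 in every Cre library and in no Control library numbered 8 without Cre 1 and 6 without Cre 2. For 16 single genes, 235 of 254 repeats kept their side of the threshold, 19 passed it and 0 changed direction. The DESeq2 test put all of these single genes except Sf3b3, Snrpg and Luc7l2 past the threshold, so for most of them the call depended on the test. The causes were not tested. With 2 Cre libraries and a common biological coefficient of variation of 1.19, a difference that missed the threshold is not shown to be absent.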
